A study of Sus scrofa with 102 samples.

Results

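*EGF*, *GAB1* and *PTPN11* form one line of growth factor signalling, and their levels were described in *Longissimus dorsi*, the long back muscle, of 102 backcross pigs of Iberian and Landrace origin. They are 3 of the 2202 genes that could be named on the porcine expression array, and each had 1 probe. *EGF* and *GAB1* were found by their symbols in the array annotation. The *PTPN11* probe carries no symbol there, and its name rests on the study, which had picked it for its expression in these same pigs. All 3 genes were selected on values measured in these pigs, namely level, spread, slaughter batch and correlated genes, so these are given as descriptions with no test. Sex, carcass weight and age played no part in the choice and were tested.

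The pigs were 55 females and 47 males, fed without restriction and slaughtered at 171 to 184 days of age with carcasses of 43.6 to 97.8 kg. Slaughter was spread over 3 batches, with 14 pigs in batch 1 (8 females), 70 in batch 2 (36 females) and 18 in batch 3 (11 females). Each pig gave 1 array, and values are log2 intensities on which 1 unit is a doubling. The pigs are related through the backcross and were treated as independent. Probes bind with different strength, so the level of one probe was not set against that of another.

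Epidermal growth factor is made as a membrane-bound precursor and binds the receptor EGFR on the same or neighbouring cells. The activated receptor recruits the adaptor GRB2, which brings in the docking protein GAB1. Phosphorylated GAB1 then binds SHP2, the tyrosine phosphatase encoded by *PTPN11*, and SHP2 keeps the RAS and MAP kinase cascade active. GAB1 and SHP2 also serve the receptors for hepatocyte growth factor, insulin-like growth factor and vascular endothelial growth factor. No probe of EGFR or of its sister receptors was analysed here.

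Some arrays stood apart. The median correlation of an array with the others was 0.897 for the typical array and 0.748 for the lowest, that of male pig 53 in batch 3. The male-specific gene *EIF1AY* lay closer to the level of the other sex in 3 of 55 females and in 0 of 47 males, and every pig was kept in the sex of its label. Defining genes of skeletal muscle fibres gave strong signal, with the 6 measured ones averaging 11.4 to 14.2 on the log2 scale. No marker of lymphocytes or red blood cells was analysed. In whole muscle, fewer cells of a type and less RNA per cell cannot be told apart.

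*EGF* was the member that varied most. Its log2 intensity lay between 5.39 and 12.58, the median was 11.26 and the mean was 11.06 ± 1.09 (SD, n = 102). The lowest and highest pigs were thus 146-fold apart, and the SD was larger than that of 93.2% of all probes tested. The distribution had a tail on the low side, with 10 pigs under 10, of which 3 were females and 7 were males. The 4 lowest values were 5.39 in male pig 27 of batch 1, 7.68 in male pig 53 of batch 3, 7.88 in male pig 80 of batch 2 and 8.00 in female pig 49 of batch 3. The low pigs therefore came from all 3 batches and from both sexes. In the order given, the arrays of these 4 pigs had a median correlation of 0.838, 0.748, 0.833 and 0.868 with the others. The typical array had 0.897, and the part of this measure in the low tail was not tested.

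*GAB1* and *PTPN11* covered much narrower ranges. *GAB1* lay between 7.01 and 9.10 with a median of 8.20 and a mean of 8.15 ± 0.46 (SD, n = 102), a span of 4.25-fold. Its SD exceeded that of only 4.28% of all probes, a set from which the authors had removed less variable ones. *GAB1* differed by over 1.5-fold from its median in 20.6% of pigs, close to the limit of 20% that this filter used. *PTPN11* lay between 8.86 and 11.05 with a median of 9.45 and a mean of 9.64 ± 0.57 (SD, n = 102), a span of 4.56-fold. Its SD exceeded that of 34.4% of probes before sex, batch and carcass weight were taken out, and of 2.28% after. These 3 factors held 69.8% of the variance of *PTPN11*, against 23.8% for *EGF*, 13.7% for *GAB1* and a median of 35.3% over all probes.

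**Figure D1:**
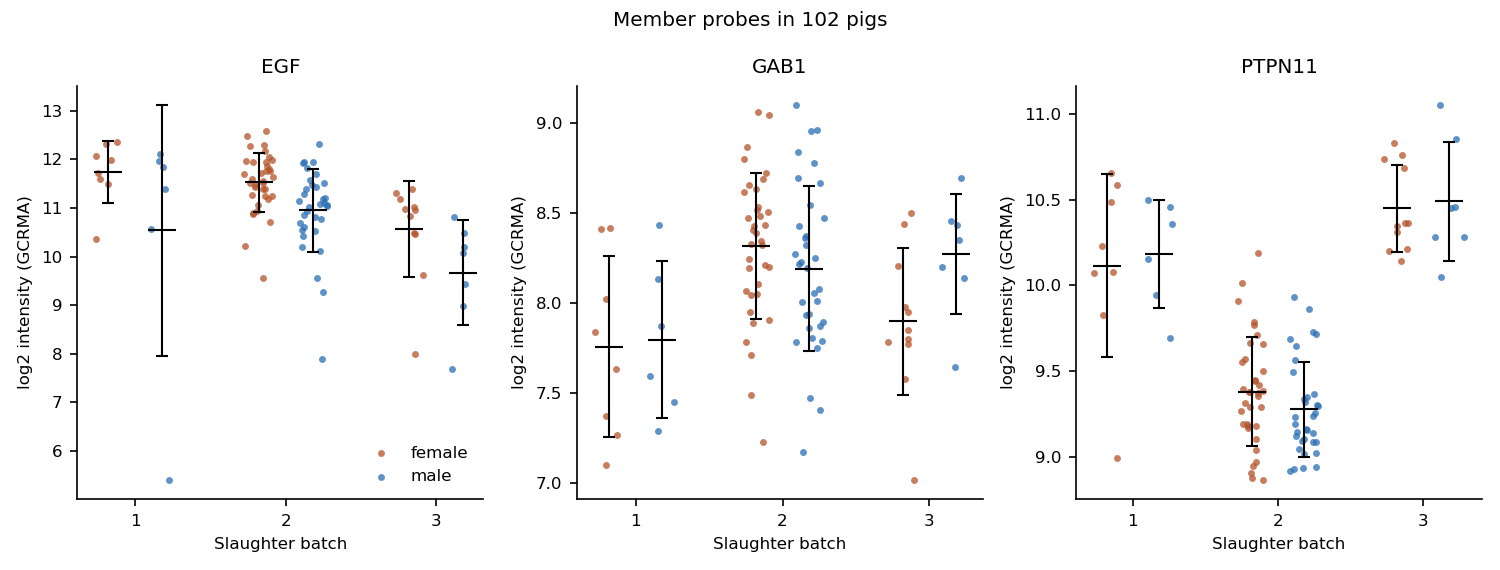
log2 intensity of each member probe by slaughter batch, with 1 point per pig, females left of males, and the mean ± SD of each group in black. Females lie above males in mean *EGF* in every batch, the lowest *EGF* point is male pig 27 at 5.39, and *PTPN11* is lowest in batch 2.

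Females had more *EGF* signal than males. In females it ran from 8.00 over a median of 11.50 to 12.58, and in males from 5.39 over a median of 11.02 to 12.31. The groups overlapped widely, although 41 of 55 females lay above the male median and 11 of 47 males lay above the female median. With batch and carcass weight in the model, the female minus male difference was 0.73 ± 0.19 (SE, log2; 95% interval 0.34 to 1.11), a 1.66-fold higher level in females (limma, adjusted p = 0.00314, n = 102). Sex differences were common on this array, since 26.1% of the 5449 probes were called, 11.7% as higher and 14.4% as lower in females, so the call of *EGF* is one among many.

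The direction was the same in each batch. In batch 1 *EGF* averaged 11.74 ± 0.64 in 8 females and 10.54 ± 2.58 in 6 males (SD), and pig 27 is one of those males. The 36 females of batch 2 had 11.53 ± 0.61 and the 34 males 10.95 ± 0.86 (SD). The 11 females of batch 3 had 10.57 ± 0.99 and the 7 males 9.67 ± 1.07 (SD). Within batch 2 alone the weight-adjusted difference was 0.61 ± 0.18 (SE, limma, adjusted p = 0.00872). In batches 1 and 3 the weight-adjusted difference was 1.13 ± 1.00 and 0.80 ± 0.51 (SE), so the direction there is less certain. Without pigs 27 and 53, the 2 farthest from the median, it was 0.52 ± 0.15 over all batches (SE, limma, adjusted p = 0.00796). A sex by batch interaction was not called for *EGF* (limma, adjusted p = 0.842), and it was called for 0% of probes, with 425 of 5449 at an unadjusted p under 0.05.

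Ordered by mean, the 6 groups of sex and batch ran from females of batch 1 through females of batch 2, males of batch 2, females of batch 3 and males of batch 1 to males of batch 3. No neighbours in this order were separated by more than the SD of the pigs within them.

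For the other members no sex difference was called. *GAB1* ran from 7.01 over a median of 8.21 to 9.06 in females and from 7.17 over a median of 8.19 to 9.10 in males, which overlapped almost completely. The difference was 0.02 ± 0.09 (SE, log2; 95% interval -0.16 to 0.20; limma, adjusted p = 0.890). Within batches it was -0.11 ± 0.26 in batch 1, 0.11 ± 0.11 in batch 2 and -0.38 ± 0.20 in batch 3 (SE, weight-adjusted), and the sex by batch interaction was not called (limma, adjusted p = 0.698). *PTPN11* ran from 8.86 over a median of 9.55 to 10.83 in females and from 8.92 over a median of 9.34 to 11.05 in males. Its difference was 0.04 ± 0.07 (SE, log2; 95% interval -0.10 to 0.17; limma, adjusted p = 0.729). The intervals leave out differences as large as that of *EGF* for both genes.

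Carcass weight was not called for any member. The slope per 10 kg was 0.03 ± 0.10 for *EGF*, 0.01 ± 0.05 for *GAB1* and -0.05 ± 0.04 for *PTPN11* (SE, log2; limma, adjusted p = 0.949, 0.950 and 0.618, n = 102). The share of probes called for weight was 0%, with 589 of 5449 at an unadjusted p under 0.05. A difference in this slope between the sexes was not called by limma for any member (adjusted p = 1.00 for each), where again 0 probes were called and 292 had an unadjusted p under 0.05. Age had an *EGF* slope of -0.10 ± 0.05 per day (SE, log2; limma, adjusted p = 0.362), with an interval of -0.21 to -0.003. Pig 27, the lowest in *EGF*, was at 181 days the oldest pig of batch 1, and this slope was not fitted without it. Within batch 2 alone the *EGF* slope was -0.03 per day. The age slopes of *GAB1* and *PTPN11* were -0.007 ± 0.024 and 0.001 ± 0.018 per day (SE; limma, adjusted p = 0.953 and 0.990). Age was called for 17 probes, 0.312% of all.

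By slaughter batch, *PTPN11* was lowest in batch 2. It ran from 8.99 over a median of 10.19 to 10.65 in batch 1, from 8.86 over 9.30 to 10.19 in batch 2 and from 10.05 over 10.36 to 11.05 in batch 3. Of 18 pigs of batch 3, 16 lay above the highest of the 70 pigs of batch 2, and only 1 pig of batch 2 reached the lowest of batch 3. The adjusted difference was 0.78 ± 0.10 for batch 1 minus 2, -0.31 ± 0.12 for batch 1 minus 3 and -1.09 ± 0.09 for batch 2 minus 3 (SE, log2). Batch was called by limma for 86.6% of all probes, and *PTPN11* was chosen with its batches in view, so nothing is read from these shifts beyond their size.

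The batches also differed in a sign of RNA quality. The actin control's 5′ probe lay below its middle probe by a mean log2 difference of -1.28 in batch 1, -0.80 in batch 2 and -1.32 in batch 3. The correlation of this difference with *PTPN11* was -0.67 over the 102 pigs and -0.39 after sex, batch and weight were taken out (Spearman's rank correlation -0.44). With it in the model, batch 1 minus 2 was 0.61 ± 0.10 and batch 2 minus 3 was -0.91 ± 0.10 (SE, log2). The residual correlation with the actin difference was 0.13 for *EGF* and 0.12 for *GAB1*.

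*EGF* was lowest in batch 3. It ran from 5.39 over a median of 11.78 to 12.37 in batch 1, from 7.88 over 11.39 to 12.58 in batch 2 and from 7.68 over 10.49 to 11.39 in batch 3. In batch 3, 17 of 18 pigs lay below the median of batch 2, while all batches overlapped. The adjusted difference was 1.03 ± 0.34 for batch 1 minus 3 and 1.08 ± 0.27 for batch 2 minus 3 (SE, log2), about 2.05-fold and 2.11-fold. Batch 1 minus 2 was -0.04 ± 0.29, turned to 0.21 under quantile normalization and to 0.13 with the actin difference, and was 0.37 without pigs 27 and 53. For *EGF*, batch 2 minus 3 was 0.78 ± 0.28 under quantile normalization and 0.89 ± 0.30 with the actin difference (SE, log2). Quantile normalization moved the median of all probes for batch 2 minus 3 to 0.01, against 0.17 in the deposited values.

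*GAB1* was lowest in batch 1. It ran from 7.10 over a median of 7.73 to 8.43 in batch 1, from 7.17 over 8.26 to 9.10 in batch 2 and from 7.01 over 8.06 to 8.70 in batch 3. The ranges overlapped, and 11 of 14 pigs of batch 1 lay below the median of batch 2. The adjusted difference was -0.47 ± 0.13 for batch 1 minus 2, -0.27 ± 0.16 for batch 1 minus 3 and 0.20 ± 0.12 for batch 2 minus 3 (SE, log2). The last of these was 0.09 ± 0.13 under quantile normalization, and the median of all probes for it was 0.17 in the deposited values.

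Among themselves, *EGF* and *GAB1* went together and *PTPN11* went with neither. After sex, batch and carcass weight were taken out, the correlation of *EGF* and *GAB1* was 0.45 over 102 pigs (Spearman's rank correlation 0.38). It was 0.26 in the 14 pigs of batch 1, 0.53 in the 70 of batch 2 and 0.80 in the 18 of batch 3, and 0.58 in females and 0.43 in males. Both values come from the same array of each pig. When the first 2 principal components of all probes were added, the correlation was 0.10. The residual correlation of *EGF* and *PTPN11* was -0.08 and that of *GAB1* and *PTPN11* was 0.03. Another array-wide measure, the median correlation of a pig's array with the others, had a residual correlation of 0.51 with *EGF*, 0.34 with *GAB1* and -0.12 with *PTPN11*; its part in the results was not tested.

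**Figure D2:**
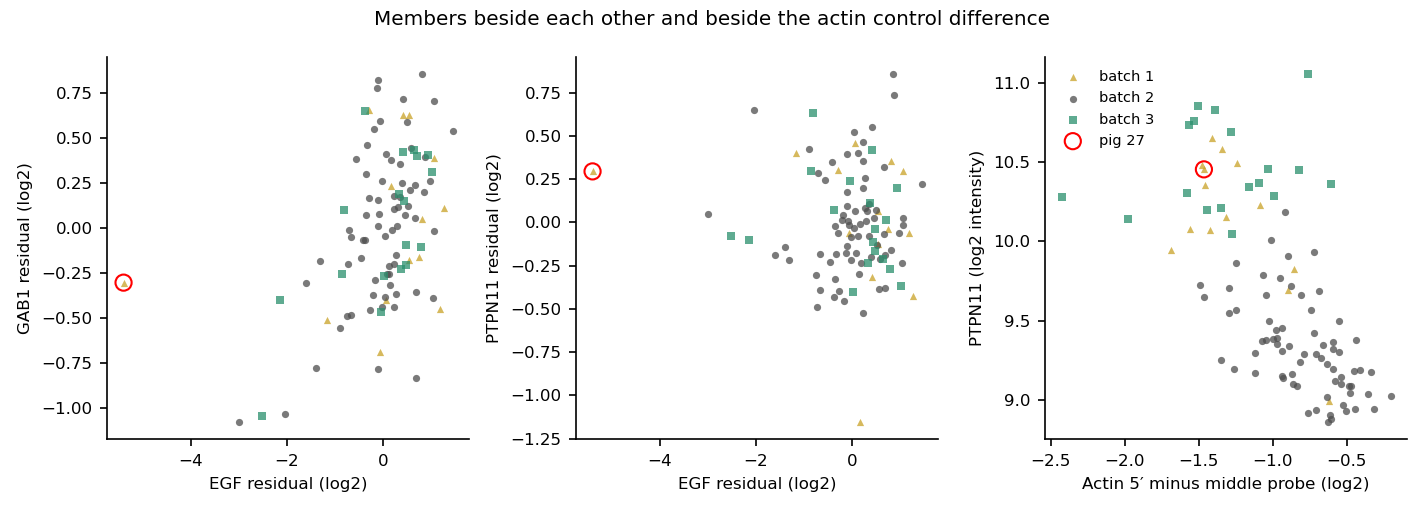
Left and middle panels plot the residual log2 level of *EGF* against *GAB1* and against *PTPN11* after sex, batch and carcass weight, and the right panel plots *PTPN11* against the actin 5′ minus middle difference. Symbols mark the slaughter batch and the red circle is pig 27. *EGF* and *GAB1* rise together (r = 0.45), while *PTPN11* shows no such trend with *EGF* (r = -0.08).

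Many probes went with *EGF*, 28.2% of the other 5448 by limma, 13.2% in the same and 15.0% in the opposite direction. No p is given for single genes, since they were picked by their correlation in the same pigs. The named genes most like *EGF* were *SNTB1*, a syntrophin of the dystrophin complex at the muscle membrane, with residual correlations of 0.82 and 0.81 for its 2 probes, *BPGM*, which makes bisphosphoglycerate, with 0.79, and *ASNS*, asparagine synthetase, with 0.78. *ATL2*, which fuses tubules of the endoplasmic reticulum, followed with 0.77 and *ZDHHC14*, a palmitoyltransferase, with 0.76. By Spearman's rank correlation the order changed, with 0.73 for *ASNS*, 0.65 for *ZDHHC14* and 0.63 for *SNTB1* and *BPGM*. Every one of these correlations was at least 0.66 in each batch and at least 0.63 in each sex. Above them stood 2 probes with no gene name, the higher at 0.85. With the first 2 principal components added, 1250 probes went with *EGF*, 679 of them among the 1536 without them.

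The most opposed genes were *HSPA2*, a chaperone of the HSP70 family, at -0.71, *HSDL2*, a dehydrogenase-like protein of peroxisomes, at -0.69 and -0.65 for 2 probes, and *AKR1CL1*, an aldo-keto reductase, at -0.68. *SLC7A1*, a carrier of arginine and lysine, stood at -0.66 and *PRRX1*, a homeobox factor of mesenchymal cells, at -0.65. Their correlations lay between -0.93 and -0.52 in the single batches. Of these 12 probes, those of *SNTB1* (first probe), *BPGM*, *ATL2* and *ZDHHC14* were also higher in females and that of *SLC7A1* was lower in females, where 11.7% and 14.4% of all probes were called higher and lower (limma, adjusted p = 0.0435, 0.0136, 0.0278, 0.0383 and 0.00614).

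The pigs lowest in *EGF* were low in some of its companions too, which were picked by their correlation in these same pigs. In pig 27, *SNTB1* had a log2 intensity of 7.19, *BPGM* 5.48 and *ASNS* 5.07, each the lowest of all 102 pigs, and *HSPA2* had 9.88, the highest of all. Pig 80 was second lowest in *SNTB1* with 7.42, in *BPGM* with 6.29 and in *ASNS* with 5.22. Pigs 49 and 53 had 7.50 and 7.82 of *SNTB1*, both among its 5 lowest values. Of the other pigs with less than 10 of *EGF*, pig 41 had 10.41 of *SNTB1*, above its median and 93rd from the lowest, pig 40 had 9.51, 23rd from the lowest, and pig 46 had 7.05 of *HSPA2*, 62nd from the lowest. The medians over all pigs were 9.99 for *SNTB1*, 9.64 for *BPGM*, 8.50 for *ASNS* and 6.87 for *HSPA2*. Without pigs 27 and 80, whose residuals lay farthest from the median, the correlations with *EGF* were 0.77, 0.67, 0.74 and -0.67 in the same order.

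Contractile genes of slow fibres ran against *EGF*. *TNNT1*, *TNNI1* and *TNNC1*, the slow forms of the troponin complex, had residual correlations of -0.42, -0.41 and -0.45, and *MYL3*, the slow light chain, had -0.31. *DES*, the intermediate filament desmin, had -0.40, and *ATP2A1*, the calcium pump of fast fibres, had 0.35. Thus 5 of the 6 fibre genes measured had a negative and 1 a positive correlation, given as a description, as are the other lists beside *EGF*. In pig 27 *ATP2A1* was the lowest of all pigs at 10.54 and *TNNC1* was among the 6 highest at 14.78. *TNNC1* reached its maximum, 15.04, in pig 80, which had 13.36 of *ATP2A1* against a median of 13.19. For *ATP2A1* the correlation was 0.17 in batch 2 and the rank correlation was 0.21 over all pigs, while the 4 slow genes stayed between -0.39 and -0.29 in batch 2. Of other cell type markers, 3 of 6 endothelial genes, among them *TEK* and *ESAM*, and 1 of 4 adipocyte genes, *LPL* at -0.39, passed limma's threshold in the opposite direction, and 2 of 8 fibroblast genes, *DCN* at 0.32 and *LUM* at 0.27, and 1 of 3 satellite cell genes, *CALCR* at 0.33, in the same direction, as did none of the 5 macrophage genes. Over all probes the shares were the 15.0% and 13.2% given above. For sex itself, limma called 2 of 4 adipocyte, 2 of 8 fibroblast and 1 of 2 mast cell genes higher in females. Lower in females were 3 of 6 endothelial genes and *MBP*, the 1 nerve gene. Fibre, macrophage and satellite cell genes had 0 calls for sex. Over all probes 11.7% were called higher and 14.4% lower in females. The part of fibre or cell make-up in the *EGF* result was not tested.

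**Figure D3:**
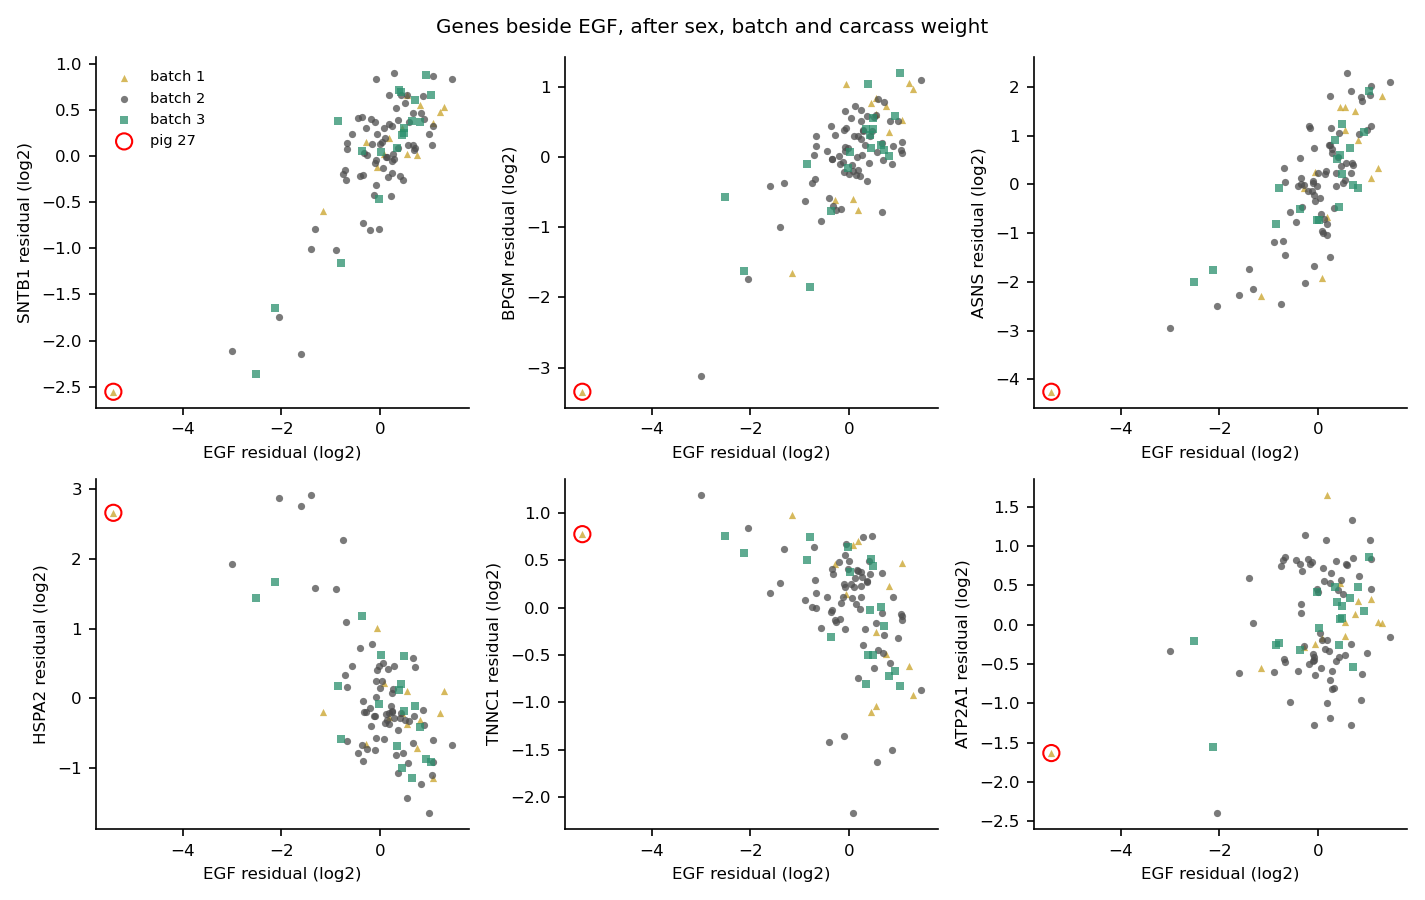
Residual log2 level of *EGF* after sex, batch and carcass weight on each horizontal axis against that of 6 other genes, 1 point per pig, with symbols for the slaughter batch and a red circle for pig 27. *SNTB1*, *BPGM* and *ASNS* fall with *EGF* down to pig 27, *HSPA2* and *TNNC1* rise as *EGF* falls, and *ATP2A1* shows the weakest trend (r = 0.35).

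*GAB1* had other companions. By limma 31.8% of the other probes went with it, 14.1% in the same and 17.7% in the opposite direction. *FDFT1*, squalene synthase of cholesterol synthesis, came first with a residual correlation of 0.72 (rank correlation 0.71), at 0.67, 0.78 and 0.53 in batches 1, 2 and 3. Others were *FBXL4*, a mitochondrial F-box protein, at 0.66 and *ANKRD28*, a regulatory subunit of a protein phosphatase, at 0.65. *MSTN*, the muscle growth inhibitor myostatin, stood at 0.64 and *SAV1*, a scaffold of the Hippo kinases, at 0.63.

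Opposed to *GAB1* were *CDKN3*, a phosphatase of cell cycle kinases, and *ODC1*, the first enzyme of polyamine synthesis, both at -0.65. *SDC2*, a heparan sulphate proteoglycan, *YWHAH*, a 14-3-3 protein, and *CRYAB*, a small heat shock protein, each stood at -0.64, and *NPM3*, a nucleolar chaperone, at -0.62. All 6 kept a negative correlation in every batch and both sexes, between -0.81 and -0.50. Of the named companions of *GAB1*, *FDFT1*, *ANKRD28*, *MSTN* and *SAV1* were higher in females (limma, adjusted p = 0.0282, 0.00096, 0.0078 and 0.00669). Lower in females were *CDKN3*, *ODC1*, *SDC2* and *YWHAH* (limma, adjusted p = 0.0336, 0.00689, 0.00343 and 0.000837). *FBXL4*, *CRYAB* and *NPM3* were not called, nor was *GAB1* itself. Over all probes 11.7% were called higher and 14.4% lower. Of the fibre genes, *TNNT1*, *TNNI1*, *TNNC1*, *MYL3* and *DES* stood at -0.40 to -0.33 with *GAB1*, and *ATP2A1* stood at 0.06. With the first 2 principal components added, 409 probes went with *GAB1*, 237 of them among the 1733 without them.

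*PTPN11* went with more of the array than the others, 64.4% of probes by limma, 31.2% in the same and 33.2% in the opposite direction. *BECN1*, a core autophagy protein, came first at 0.75, then *TM2D3* at 0.70, *CASD1*, a sialic acid acetyltransferase, at 0.68, *RAN*, the GTPase of nuclear transport, at 0.65, *CHMP1B*, a membrane remodelling protein, at 0.65, and *SMARCA1*, a chromatin remodeller, at 0.65. *BECN1* stood at 0.93 in batch 1, 0.74 in batch 2 and 0.42 in batch 3. Most opposed were *RALY*, an RNA-binding protein, at -0.76, *MACROD1* at -0.75, *LIMS2*, an adhesion adaptor, at -0.74, *CDC34*, a ubiquitin-conjugating enzyme, at -0.74, *OGDH* of the citric acid cycle at -0.73 and the elongation factor *EEF1A1* at -0.72. Of these genes only *TM2D3* was called for sex, as higher in females (limma, adjusted p = 0.00498), where 11.7% of all probes were. With the first 2 principal components added, 143 probes went with *PTPN11*, 103 of them among the 3510 without them.

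**Figure D4:**
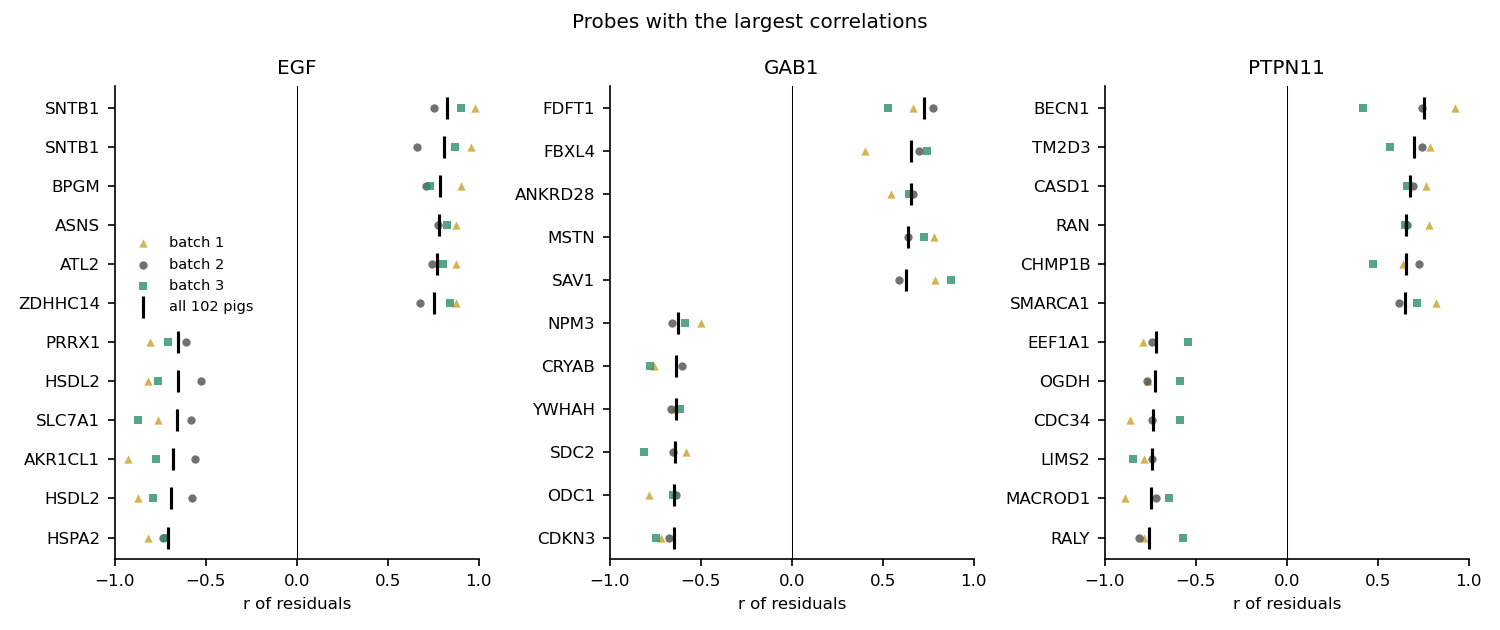
Residual correlation of up to 6 of the most positive and 6 of the most negative named probes with each member, from -1 to 1 on the horizontal axis. Black bars give the value over 102 pigs and symbols the values within each slaughter batch, and every symbol lies on the same side of 0 as its bar. *SNTB1* and *HSDL2* each appear with 2 probes.

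The rest of the pathway was covered in part, with 33 of 148 listed genes measured beside the members. By limma 2 of the 33 were higher and 10 were lower in females, with a median difference of -0.14 against -0.03 over all probes. Background shares were the 11.7% and 14.4% given above. The list was drawn up with earlier results of these data known, so these counts are a description. *GRB2*, the adaptor that links the receptor to GAB1, ran opposite to *EGF*. It ranged from 6.24 over a median of 7.25 to 8.25 in females and from 6.40 over 7.74 to 9.33 in males. The difference was -0.62 ± 0.11 (SE, log2; limma, adjusted p = 3.46e-05), so that males had 1.53 times the female level. *GRB10*, an adaptor that restrains insulin receptor signalling, was also lower in females, with a smaller difference of -0.29 ± 0.09 (SE; limma, adjusted p = 0.0109).

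Downstream, *STAT3*, a transcription factor activated by cytokine and growth factor receptors, was lower in females with a difference of -0.38 ± 0.08, and the kinase *AKT1* with -0.47 ± 0.15 (SE, log2; limma, adjusted p = 0.000325 and 0.0176). Of 8 transcription targets, 4 were lower in females, with differences of -1.18 ± 0.20 for *FOSL2*, -1.06 ± 0.35 for *ATF3*, -0.91 ± 0.21 for *MYC* and -0.29 ± 0.11 for *KLF10* (SE; limma, adjusted p = 6.87e-06, 0.0166, 0.000547 and 0.0328). *FOS* and *EGR1*, immediate-early genes, had differences of -0.19 ± 0.39 and -0.10 ± 0.33 and were not called. *VEGFA*, the growth factor of blood vessels, had a difference of -0.90 ± 0.18 and *PECAM1*, an endothelial adhesion molecule that binds SHP2, one of -0.29 ± 0.09 (SE; limma, adjusted p = 9.9e-05 and 0.00942). Higher in females were the kinases *JAK2*, by 0.29 ± 0.09, and *PIK3CG*, by 0.22 ± 0.08 (SE; limma, adjusted p = 0.0158 and 0.0434). *FOSL2* and *PIK3CG* were dim, with mean log2 intensities of 3.25 and 3.49 and a female median of 2.50 for *FOSL2*. Both lay under the mean of 4 below which dim probes were left out as an alternative. The other measured ligand of the EGF receptor, *HBEGF*, had a difference of -0.38 ± 0.17 and did not pass (limma, adjusted p = 0.0824). Carcass weight was called for 0 of the 33.

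**Figure D5:**
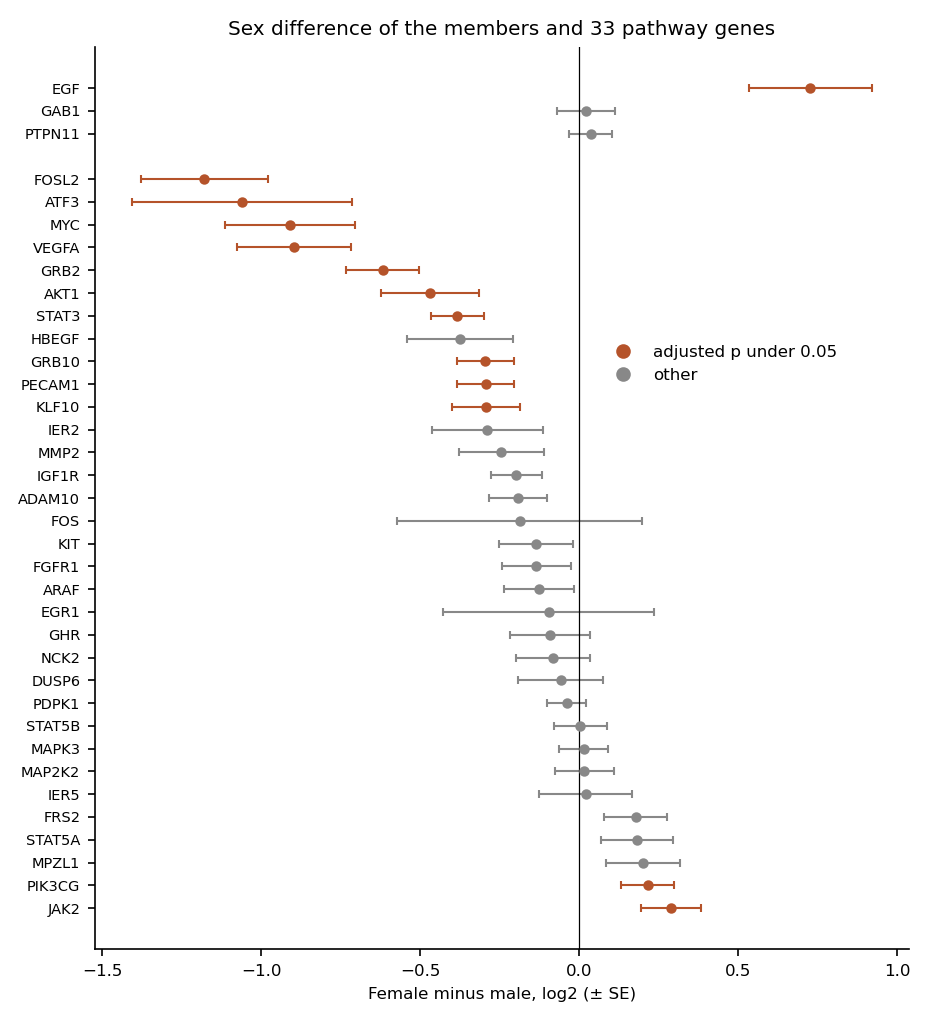
Female minus male difference on the log2 scale (± SE) of the 3 members, at the top, and of 33 other pathway genes in order of their difference, from limma with batch and carcass weight over 102 pigs. *EGF* lies at 0.73, to the right of all 33, and *FOSL2*, *ATF3*, *MYC*, *VEGFA* and *GRB2* lie farthest to the left.

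Beside *EGF*, 3 of the 33 pathway genes went by limma in the same and 5 in the opposite direction, against 13.2% and 15.0% of all probes. These counts, and those beside *GAB1* and *PTPN11*, are descriptions. *STAT5A*, a target of growth hormone and prolactin receptors, stood highest at 0.52, followed by *GHR*, the growth hormone receptor, at 0.29 and the adaptor *NCK2* at 0.25. Opposed were *MYC* at -0.49, *VEGFA* at -0.42, *GRB2* at -0.37, the kinase *PDPK1* at -0.35 and *PECAM1* at -0.28. *STAT5A* lay between 0.39 and 0.70 in the batches, while *VEGFA* was 0.05 in batch 1 and -0.60 in batch 2.

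Beside *GAB1*, where the shares of all probes were 14.1% and 17.7%, 3 went in the same direction, *STAT5A* at 0.40, *GHR* at 0.32 and *STAT5B* at 0.27, and 8 in the opposite one, led by *VEGFA* at -0.58, *STAT3* at -0.43, *MYC* at -0.39 and *IER2* at -0.38. Beside *PTPN11*, where those shares were 31.2% and 33.2%, 4 went in the same direction, among them *PDPK1* at 0.55, *FRS2*, a docking protein of fibroblast growth factor receptors, at 0.46 and *JAK2* at 0.41. In the opposite direction went 18, led by the kinases *MAP2K2* at -0.70 and *ARAF* at -0.66 and by *AKT1* and *MMP2*, both at -0.63. All 3 measured members of the MAP kinase cascade were among the 18, with *MAPK3* at -0.60.

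*EGF* and *GAB1* both lie on chromosome 8 and *PTPN11* on chromosome 14 of the Sscrofa11.1 assembly in RefSeq. Between *GAB1* and *EGF* stand 88 other protein-coding genes. The gene next to *EGF* is *ELOVL6*, an elongase of palmitate, which had a residual correlation of 0.19 with *EGF*, 0.06 with *GAB1* and 0.22 with *PTPN11*. *ENPEP*, an aminopeptidase 2 positions away, had 0.04 with *EGF*. Of the 10 nearest measured genes on either side of *EGF*, the largest values were 0.45 for *MAD2L1*, 29 genes away, and -0.41 for *ABHD18*, 57 genes away. *SMARCA5*, next to *GAB1*, had -0.08 with it, and *MAD2L1*, 60 genes away, had 0.43. The interleukin receptor *IL1R2*, which the study places on a different chromosome from *EGF* and *GAB1*, had 0.51 with *GAB1* and 0.18 with *EGF*. With *GAB1* it stood at 0.81, 0.58 and -0.03 in batches 1, 2 and 3. The glutathione transferase *MGST2* had 0.34 with *PTPN11*, -0.05 with *EGF* and -0.004 with *GAB1*.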

How the data were processed

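RNA of *Longissimus dorsi* of 102 pigs had been hybridized to porcine expression arrays, 1 per pig. The authors used GCOS to generate the data, AffyPLM to check the arrays and GCRMA, run in BRB-ArrayTools, to normalize them. The deposited values are log2 intensities of 5493 probes. GCRMA corrects background by probe sequence, so values of dim probes rest on that correction. The authors also kept only variable probes, those past 1.5-fold from the median in over 20% of arrays, and 98.0% of the deposited probes met that limit, so shares of probes called and ranks of spread hold for this variable set. Of the probes, 44 controls were left out. Of 5449 tested, 2639 had 1 gene symbol in the platform annotation, 49 had several and 2761 had none. Symbols were looked up by gene ID in RefSeq, where 2619 matched. Arrays carry no counts, so precision is set by how many pigs there were.

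limma 3.58.1 in R 4.3.3 fitted sex, slaughter batch and carcass weight, two-sided, with a Benjamini-Hochberg adjusted p under 0.05 over all probes. Age and interactions were added in turn. Residuals of this fit gave the correlations, within batches and sexes from fits to those pigs alone. The code was tested on simulated data. Figures used Python 3.11.15 with matplotlib 3.10.9.

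The members and gene lists were chosen with earlier results of these data known. Named are all member probes, the 6 probes with 1 symbol and the largest correlation in each direction, pathway genes called for sex or weight and up to 4 in each direction by correlation, the 10 nearest measured genes on either side of *EGF* and *GAB1*, and *IL1R2*, *ELOVL6* and *MGST2*. A probe among those most like *GAB1* is not reported here. Genes with several probes in a list used that with the highest mean. Alternatives were quantile normalization, other covariates, array weights, batch as a random block, batch 2 only, and arrays or dim probes left out.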

Additional observations from a re-analysis of the deposited data

Results flagged for a closer look

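The 3 members in 3 groups of sex and batch with 4 to 10 pigs gave 9 sets of values, of which 2 had a lowest pig far from the others, both for *EGF*, and chance gives about 1 such set in 20. The members were chosen with their spread in view, so these gaps describe the pigs and test nothing. In batch 1, male pig 27 had 5.39 and the next of the 6 males 10.56, a gap of 0.770 of the whole range. Also in batch 1, female pig 13 had 10.37 and the next of the 8 females 11.50, a gap of 0.564 of the range. The array of pig 13 had a median correlation of 0.830 with the others, among the 5 lowest, and that of pig 27 had 0.838. Without these 5 arrays, which include pigs 13 and 53 but not pig 27, the female minus male difference of *EGF* was 0.69 ± 0.19 (SE, log2; limma, adjusted p = 0.00441).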

How the results depend on the processing

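The *EGF* sex difference stayed positive and called under all 13 alternatives, between 0.52 and 0.84 (limma, adjusted p between 0.000113 and 0.0122). Those of *GAB1* and *PTPN11* stayed uncalled. Adding the first 2 principal components could not move these differences, as they come from residuals of the same fit. For *EGF* that setting kept 0.73 and gave the lowest adjusted p by limma, 0.000113, through a smaller SE. Leaving out dim probes could not move the differences either. The *GAB1* difference was -0.00288 with no other covariates. The *EGF* weight slope was -0.0136 without the 2 pigs farthest from the median, and that of *GAB1* was -0.0163 in batch 2 only. The *PTPN11* weight slope was called only with no other covariates, at -0.22 per 10 kg (limma, adjusted p = 0.000555). That fit leaves out both sex and batch, and the batches differ in weight. Its age slope was -0.00626 in batch 2 only. The cause of these changes was not tested. Among the 12 pathway genes called for sex, *PIK3CG* was not called under 4 alternatives (adjusted p up to 0.121), *GRB10* (0.0991) and *KLF10* (0.250) under quantile normalization, and *PECAM1* with no other covariates (0.0545). Leaving out the 5 least correlated arrays, and for batch and companion probes the 2 farthest pigs, was chosen after the data had been seen. With the first 2 principal components added, 1250 probes went with *EGF*, 409 with *GAB1* and 143 with *PTPN11*, of which 679, 237 and 103 were among the 1536, 1733 and 3510 without them, and the residual correlation of *EGF* and *GAB1* was 0.10. That of *GAB1* and *PTPN11* was -0.18 in females and 0.24 in males. With 1 probe per member no second probe could be tried, and no paired analysis was possible because each pig has its own number. GCRMA signal limits what dim probes show, and without the pedigree related pigs count as independent.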
